A study of Mus musculus with 4 samples.

Results

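The genes described here are 10 genes of the oxysterol and liver X receptor (LXR) system, taken by symbol from the 23284 gene symbols of the deposited tables: the enzymes Ch25h, Cyp7b1 and Hsd3b7, the oxysterol receptor Gpr183, the liver X receptors Nr1h2 and Nr1h3, and the LXR targets Abca1, Abcg1, Mylip and Srebf1. All 10 were found. They were measured by RNA sequencing in macrophages grown from the bone marrow of wild-type mice, a primary culture model of tissue macrophages, in 2 libraries with galectin-1 and 2 with vehicle. Galectin-1 is a secreted lectin that binds galactosides on cell surface glycans, and it was given as recombinant mouse protein for 24 h, at a dose that the sources do not state; the vehicle cultures had phosphate-buffered saline for the same time. Both groups had first received lipopolysaccharide (LPS), the bacterial product that Toll-like receptor 4 recognises, for 1 h at 1 µg/ml, so each value below comes from an LPS-stimulated cell and none from a resting one. The series asked whether galectin-1 alters the character of macrophages in intestinal inflammation. The age and sex of the mice, and whether the libraries of a group came from separate animals or cultures, are not stated, so the p-values measure the spread between these libraries, which may be technical.

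Oxysterols are hydroxylated forms of cholesterol. Ch25h adds a hydroxyl group to the side chain of cholesterol; its product restrains sterol synthesis, can activate the liver X receptors, and is the starting material from which Cyp7b1 makes the ligand of Gpr183, a receptor that guides the migration of lymphocytes and dendritic cells. Hsd3b7 inactivates that ligand. The liver X receptors bind DNA as pairs with a retinoid X receptor and raise the transcription of genes that remove cholesterol from macrophages or make fatty acids. In macrophages Ch25h is itself an LPS- and interferon-induced gene.

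Values are FPKM, fragments per transcript length and library size, and differences are galectin-1 minus vehicle on the log2(FPKM + 1) scale, which understates the change of low genes. The 9380 genes that averaged 1 FPKM or more were tested together with limma, with a Benjamini-Hochberg adjusted p under 0.05 as the threshold. Library totals were 557661 and 555507 FPKM with galectin-1 and 553191 and 541138 FPKM with vehicle, and the FPKM steps of low genes put the depths at 1.03, 0.872 and 0.969 for galectin-1 replicates 1 and 2 and vehicle replicate 2 when vehicle replicate 1 is set to 1. Since absolute depth is unknown, no counting interval is given.

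With galectin-1, Ch25h was higher and none of the other oxysterol or LXR genes passed the threshold. Of the 10 genes 8 reached the expression minimum; 1 of these 8 rose, against 0.608% of all tested genes, and 0 fell, against 0.586%. At an unadjusted p under 0.05 in limma, 2 of the 8 were higher, Ch25h and Abcg1, and 0 were lower, where 12.2% of all tested genes were higher and 11.0% lower. The median difference of the 8 genes was 0.10, beside 0.00237 for all tested genes. All 8 averaged more than 5 FPKM, and the median over the 6281 genes of at least 5 FPKM was 0.0200. The groups did not overlap in 5 genes that were higher with galectin-1 (29.1% of all tested genes) and in 1 that was lower (26.2%).

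**Figure D1:**
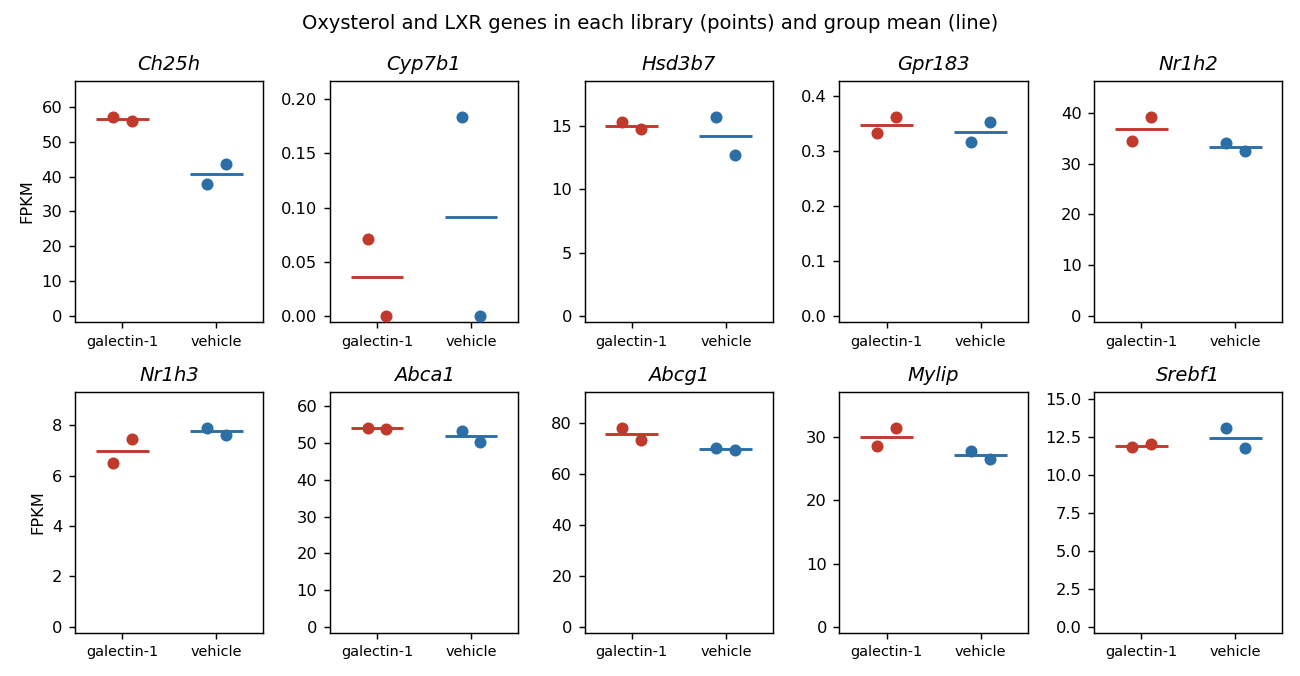
FPKM (vertical axes, each starting at 0) of the 10 genes in the 2 galectin-1 libraries (left, red points) and the 2 vehicle libraries (right, blue points), with the group mean as a line. Ch25h had 57.1 and 56.0 FPKM with galectin-1, above 38.0 and 43.5 FPKM with vehicle, while the points of the other genes lie close together or overlap.

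Ch25h is a gene of 1 exon, 1387 bases long, on the minus strand of chromosome 19 (chr19:34473778-34475164, mm10), 17153 bases from Lipa, the gene of lysosomal acid lipase. Its level was 57.1 and 56.0 FPKM in galectin-1 replicates 1 and 2, against 38.0 and 43.5 FPKM in vehicle replicates 1 and 2. Both galectin-1 libraries lay above both vehicle libraries, and the vehicle libraries lay further apart than the galectin-1 libraries. The group means were 56.6 ± 0.789 FPKM with galectin-1 and 40.7 ± 3.93 FPKM with vehicle (SD, n = 2 each), a ratio of 1.39. In limma the log2 difference was 0.47 ± 0.07 (SE) and its 95% interval ran from 0.30 to 0.63 (adjusted p = 0.0453). By size of the difference Ch25h ranked 9 among the 57 genes that rose and 52 among all 9380 tested genes. By p in limma it ranked 96 among all tested genes. In RNA from whole cultures, more cells that make a transcript and more transcript per cell cannot be told apart.

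The call of Ch25h lay near the threshold. Its adjusted p in limma was 0.0601 without vehicle replicate 2, 0.130 without vehicle replicate 1, 0.183 without galectin-1 replicate 1 and 0.227 without galectin-1 replicate 2, with log2 differences from 0.37 to 0.56. It was 0.0629 after quantile normalization, 0.138 without a variance trend and 0.147 with no filter on low values. An annotated non-coding gene on the opposite strand, Gm26902, shares 159 exon bases with Ch25h; it has no value of its own under this symbol in the tables, and whether reads were assigned by strand is not stated in the sources.

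**Figure D2:**
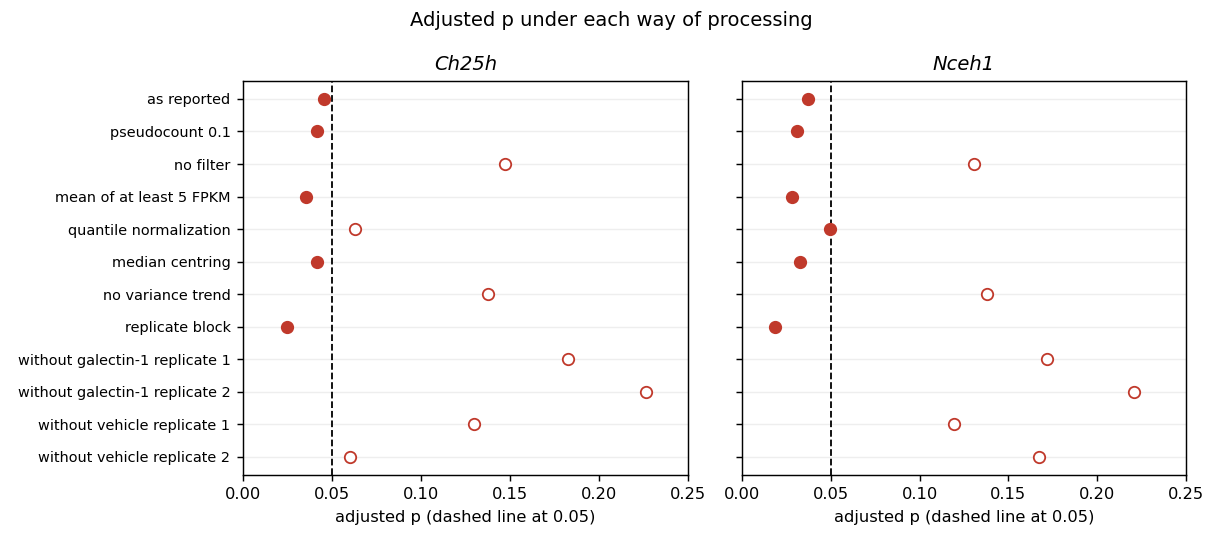
Adjusted p from limma (horizontal axis, dashed line at 0.05) for Ch25h and for Nceh1, a cholesterol ester hydrolase gene, as reported (top) and under 11 other ways of processing; filled points lie under 0.05. Ch25h kept its call in 4 of the 11 and Nceh1 in 5, and both lost it when any 1 library was left out.

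The sequence before the start of Ch25h is shown because this gene is the one that rose. It covers 250 bases of the RefSeq window (chr19:34475149-34475398, GRCm38.p6, minus strand), printed 5′ to 3′. The capitals mark TGACGTCA, the cyclic AMP response element to which factors of the ATF and CREB families bind.
Ch25h: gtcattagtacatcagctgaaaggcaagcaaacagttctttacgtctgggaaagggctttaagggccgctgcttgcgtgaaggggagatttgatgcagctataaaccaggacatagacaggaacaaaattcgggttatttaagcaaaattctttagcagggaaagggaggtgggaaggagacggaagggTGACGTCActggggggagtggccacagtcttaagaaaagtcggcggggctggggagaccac
The motif reads the same on both strands, begins 61 bases before the RefSeq start and was searched after the sequence had been seen. The gene span given above comes from the GENCODE annotation, whose start lies 16 bases further upstream, so the last 16 bases printed lie inside that span and the motif begins 45 bases before its start. The motif occurs in 1.79% of the 32851 windows of 300 bases in the RefSeq promoter table. Of the 11 windows that belong to 8 of the 10 genes, 1 holds it. Atf3, an ATF family member known to repress Ch25h in mouse macrophages, had 390.1 and 384 FPKM with galectin-1 and 384 and 384 FPKM with vehicle (log2 difference 0.01, 95% interval from -0.06 to 0.08, limma adjusted p = 0.837); it was picked for its role after its values had been seen.

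Of the enzymes that act after Ch25h, Hsd3b7 did not pass the test and Cyp7b1 was too low for it. Hsd3b7, which inactivates the ligand of Gpr183, had 15.3 and 14.7 FPKM with galectin-1, against 15.7 and 12.7 FPKM with vehicle. The groups overlapped, with both the highest and the lowest value in vehicle (log2 difference 0.08, 95% interval from -0.16 to 0.32, limma adjusted p = 0.656), and the difference was -0.06 without vehicle replicate 2. Annotated genes that overlap Hsd3b7 on both strands, Gm49388 with 1717 shared exon bases and 9430064I24Rik with 1729, are not listed in the tables, so reads from them may count towards it. Cyp7b1, the oxysterol hydroxylase that makes the ligand, was near the floor: it was listed at 0.0713 and 0 FPKM with galectin-1 and at 0.184 and 0 FPKM with vehicle. Each group thus had 1 library listed at 0, and the gene was not tested.

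Gpr183, the receptor, was also low and below the expression minimum. It had 0.332 and 0.362 FPKM with galectin-1, against 0.315 and 0.353 FPKM with vehicle, so the groups overlapped. Thus Ch25h was expressed in these cultures at 56.6 FPKM with galectin-1 and 40.7 FPKM with vehicle, while the transcripts of the enzyme and the receptor of the next steps stood below 1 FPKM in every library.

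The 2 liver X receptors were present at unequal levels. Nr1h2, which encodes LXR beta, the form found in most tissues, had 34.4 and 39.2 FPKM with galectin-1, against 34.1 and 32.5 FPKM with vehicle. Nr1h3, which encodes LXR alpha, the form enriched in liver and macrophages, had 6.53 and 7.45 FPKM with galectin-1, against 7.91 and 7.63 FPKM with vehicle. The groups of neither gene overlapped, Nr1h2 being higher and Nr1h3 lower with galectin-1, but by margins smaller than the distance between the 2 galectin-1 libraries. The log2 difference was 0.14 for Nr1h2 (95% interval from -0.03 to 0.31) and -0.14 for Nr1h3 (-0.33 to 0.06), with limma adjusted p of 0.290 and 0.356, so neither passed. The galectin-1 libraries set much of the size: the difference of Nr1h2 was 0.23 without galectin-1 replicate 1 and 0.05 without galectin-1 replicate 2, and that of Nr1h3 was -0.05 and -0.22 without the same libraries.

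Between the libraries of the same group, the ratio of the receptors spread less, relative to its size, than either receptor alone. Over the 4 libraries the ratio ran from 4.25 to 5.28 and was not the steadier quantity. Per length, the Nr1h2 level was 5.28 and 5.26 times the Nr1h3 level in galectin-1 libraries, against 4.31 and 4.25 times in vehicle libraries. This ratio was computed after the values of both genes had been seen, and it has no test across all genes; a permutation of 2 against 2 libraries cannot give a 2-sided p below 0.333. Nr1h3 shares 34 exon bases with Gm13783 on its own strand.

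The LXR targets of cholesterol removal were among the most abundant of the set and differed by small amounts. Abcg1, a transporter that passes cholesterol to lipoprotein particles, had 78.2 and 73.5 FPKM with galectin-1, against 70.2 and 69.3 FPKM with vehicle. The groups did not overlap, and the log2 difference of 0.12 (95% interval from 0.01 to 0.22) had an unadjusted p of 0.0320 and a limma adjusted p of 0.176; the difference was 0.07 without galectin-1 replicate 1. Abca1, which passes cholesterol to lipid-poor apolipoprotein A, had 54.2 and 53.9 FPKM with galectin-1, against 53.3 and 50.3 FPKM with vehicle. Its galectin-1 libraries lay just above the higher vehicle library, and the log2 difference of 0.06 had a 95% interval from -0.04 to 0.17 (limma adjusted p = 0.436). Leaving out vehicle replicate 1 gave 0.10, and leaving out vehicle replicate 2 gave 0.02.

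Mylip and Srebf1 differed in sign, and neither passed. Mylip, which encodes a ubiquitin ligase, had 28.6 and 31.5 FPKM with galectin-1, against 27.9 and 26.5 FPKM with vehicle (log2 difference 0.14, 95% interval from -0.01 to 0.29, limma adjusted p = 0.238), and the difference was 0.07 without galectin-1 replicate 2. Srebf1, the transcription factor of fatty acid synthesis genes, had 11.8 and 12.1 FPKM with galectin-1, against 13.1 and 11.8 FPKM with vehicle. Its galectin-1 libraries lay between the vehicle libraries (log2 difference -0.05, 95% interval from -0.22 to 0.11, limma adjusted p = 0.668), and the difference was 0.02 without vehicle replicate 1. Srebf1 shares 109 exon bases with Rai1 on the opposite strand.

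**Figure D3:**
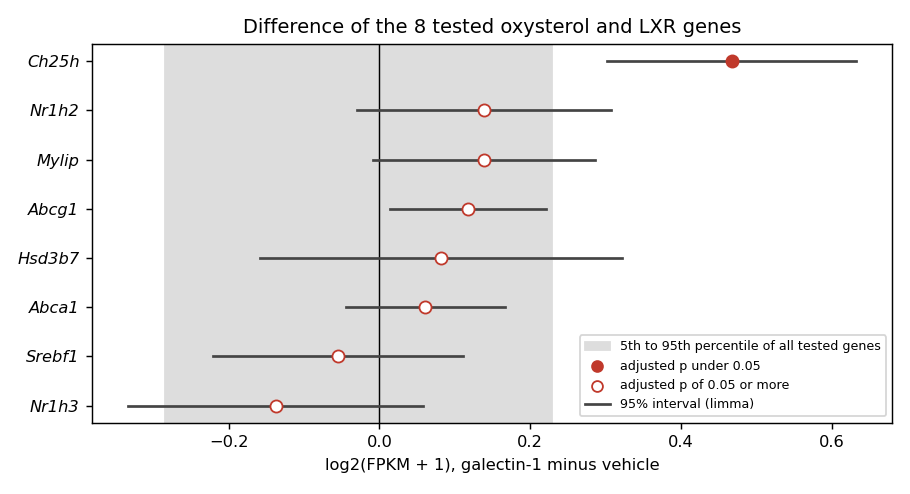
Log2 difference, galectin-1 minus vehicle (horizontal axis), of the 8 tested genes, with 95% intervals from limma as lines; filled points have an adjusted p under 0.05, and the grey band spans the 5th to 95th percentile of all 9380 tested genes (-0.28 to 0.23). Ch25h at 0.47 lies outside the band, and the other 7 lie inside it between -0.14 and 0.14.

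The windows before the starts of Abca1 and of Srebf1 are shown because they hold the letters by which liver X receptors are known to act on these 2 genes. A liver X receptor and its retinoid X receptor partner bind paired half-sites of 6 bases set 4 bases apart. The Abca1 window and the Srebf1 windows share a longest stretch of 22 bases with at most 3 mismatches, and the capitals mark its first 16 bases, TGACCGNNAGTAACCC, as long as such a pair. The Abca1 window is chr4:53159896-53160145 and the Srebf1 window, at one of its 3 RefSeq starts, is chr11:60210472-60210721 (250 bases each, GRCm38.p6, minus strand, 5′ to 3′).
Abca1: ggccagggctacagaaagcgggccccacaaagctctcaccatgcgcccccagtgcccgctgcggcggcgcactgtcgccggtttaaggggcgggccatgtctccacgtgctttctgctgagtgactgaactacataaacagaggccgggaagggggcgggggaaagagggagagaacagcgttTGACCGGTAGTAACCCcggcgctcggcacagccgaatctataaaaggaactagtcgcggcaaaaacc
Srebf1: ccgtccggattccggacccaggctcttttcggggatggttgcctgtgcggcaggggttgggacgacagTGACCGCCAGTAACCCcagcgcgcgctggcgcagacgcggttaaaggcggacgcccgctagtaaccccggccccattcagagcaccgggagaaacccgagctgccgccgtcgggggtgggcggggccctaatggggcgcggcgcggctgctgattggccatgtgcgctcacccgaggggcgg
The match begins 67 bases before the start of Abca1 and 182 bases before that of Srebf1. Searched on both strands, the motif was found in 3 of the 32851 windows, or 0.00913%. Because its letters were taken from the Abca1 and Srebf1 windows, those 2 matches were fixed before the search. The remaining window belongs to Fasn, the fatty acid synthase gene and another LXR target. The Abca1 and Fasn windows hold the same 16 letters, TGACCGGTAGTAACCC, and the Srebf1 window holds TGACCGCCAGTAACCC. Fasn had 1.44 and 1.37 FPKM with galectin-1, against 1.32 and 1.24 FPKM with vehicle (log2 difference 0.08, limma adjusted p = 0.682), so none of the 3 genes with the motif passed. A match of letters is a description of the sequence and does not show binding in these cells.

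By mean level over the 4 libraries the order was Abcg1, Abca1, Ch25h, Nr1h2, Mylip, Hsd3b7, Srebf1, Nr1h3, Gpr183 and Cyp7b1, from 72.8 FPKM to 0.0637 FPKM. The ranges of the neighbours Abca1 and Ch25h, Ch25h and Nr1h2, and Hsd3b7 and Srebf1 overlapped, and those of the other neighbours did not. Ch25h changed places with Abca1: per length its level was 1.05 and 1.04 times that of Abca1 with galectin-1, against 0.712 and 0.865 times with vehicle. The 3 tested genes whose profile over the 4 libraries was nearest to that of Ch25h, by Euclidean distance of centred log2 values, were Nop16 (distance 0.0492), which encodes a nucleolar protein, Niacr1 (0.0617), the gene of a receptor for nicotinic acid and hydroxybutyrate, and Adamts4 (0.0766), which encodes a matrix protease. Over 4 libraries this likeness is a description only.

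Beyond the set, 65 further genes of the pathway were examined in 5 lists; 50 were tested, 1 rose, 0 fell and 49 did not pass, where 0.608% of all tested genes rose and 0.586% fell. The gene that rose was Nceh1, which encodes a hydrolase that releases cholesterol from its stored esters in macrophages. Nceh1 had 41.1 and 40.1 FPKM with galectin-1, against 31.6 and 30.0 FPKM with vehicle. The groups did not overlap, and the log2 difference was 0.39 ± 0.05 (SE; limma adjusted p = 0.0371). Without any 1 of the libraries its adjusted p was 0.119 to 0.221, and it was 0.138 without a variance trend and 0.130 with no filter.

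Nceh1 belongs to the list of sterol sensing, transport and esterification, in which 14 of 14 genes were tested. Of their differences 12 were positive, beside 50.7% of all tested genes, with a median of 0.12. Soat2 averaged 1.32 FPKM and every other gene of the list more than 5 FPKM. The median over the 6281 genes of at least 5 FPKM was 0.0200. At an unadjusted p under 0.05 in limma 5 of the 14 were higher and 0 lower, beside 12.2% and 11.0% of all tested genes. Npc1, a lysosomal cholesterol exporter, had 27.0 and 26.9 FPKM with galectin-1, against 23.3 and 21.6 FPKM with vehicle (log2 difference 0.25, limma adjusted p = 0.0777). Stard3, an endosomal carrier of cholesterol, had 83.8 and 85.8 FPKM with galectin-1, against 75.2 and 77.6 FPKM with vehicle (0.15, limma adjusted p = 0.102). Npc1 and Stard3 had the smallest p of the list after Nceh1, and in each both galectin-1 libraries were the higher ones. Over the whole list 10 of 14 genes were higher without overlap and 0 lower, beside 29.1% and 26.2% of all tested genes. Soat1, which makes the esters that Nceh1 cleaves, had 20.1 and 19.1 FPKM with galectin-1, against 18.3 and 17.5 FPKM with vehicle (0.12, limma adjusted p = 0.242), and was picked for its role after its values had been seen. Lipa, the neighbour of Ch25h, had 234 and 225 FPKM with galectin-1, against 220.1 and 212 FPKM with vehicle (0.09, limma adjusted p = 0.221), and it too was picked after its values had been seen.

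Of 19 other LXR targets 15 were tested and 0 passed; 11 differences were positive, beside 50.7% of all tested genes, with a median of 0.08 that was 0.05 without galectin-1 replicate 2. The unadjusted p in limma was under 0.05 for 3 that were higher and 1 that was lower, beside 12.2% and 11.0% of all tested genes. Scd2, a fatty acid desaturase, had 5.69 and 5.16 FPKM with galectin-1, against 4.59 and 4.17 FPKM with vehicle (0.25, limma adjusted p = 0.156). Apoe, the apolipoprotein that carries cholesterol away from macrophages, had 3225 and 3370.2 FPKM with galectin-1, against 3121 and 3122 FPKM with vehicle (0.08, limma adjusted p = 0.195). Mertk, a receptor for the uptake of dying cells, differed in the other direction, with 17.0 and 16.7 FPKM with galectin-1, against 19.8 and 18.3 FPKM with vehicle (-0.17, limma adjusted p = 0.167). The sterol transporter genes Abcg5 and Abcg8, known from liver and intestine, were listed at 0 in every library.

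**Figure D4:**
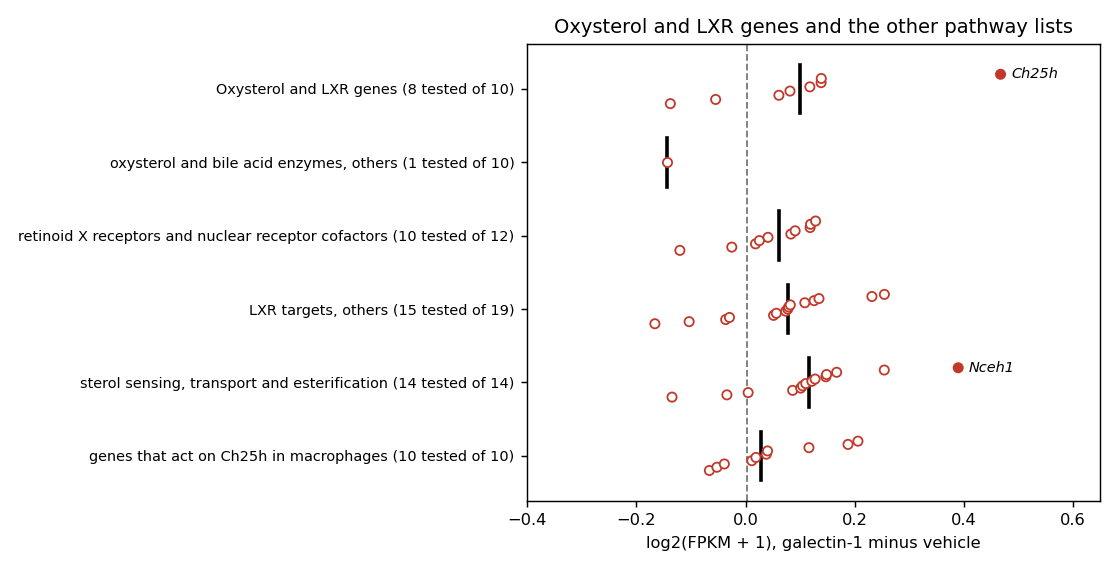
Log2 difference, galectin-1 minus vehicle (horizontal axis), of each tested gene in the oxysterol and LXR set and in 5 further lists; thick lines are list medians, the dashed line is the median of all tested genes, and filled points have an adjusted p under 0.05. Ch25h (0.47) and Nceh1 (0.39) are the filled points, and list medians run from -0.14 to 0.12.

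Among the partners of the liver X receptors, the retinoid X receptors and nuclear receptor cofactors, 10 of 12 genes were tested and 0 passed, with a median of 0.06. That median was 0.04 without galectin-1 replicate 2, 0.10 without galectin-1 replicate 1 and 0.10 without vehicle replicate 1. At an unadjusted p under 0.05 in limma 2 of the 10 were higher, beside 12.2% of all tested genes, and 0 were lower. The 2 were the coactivator gene Ncoa3 (0.13, limma adjusted p = 0.150) and Gps2 (0.12, limma adjusted p = 0.204), which encodes a subunit of the corepressor complex. Rxrb had 5.98 and 6.87 FPKM with galectin-1, against 6.70 and 5.73 FPKM with vehicle, so the groups overlapped. Rxra had 0.897 and 1.04 FPKM with galectin-1, against 0.739 and 0.748 FPKM with vehicle. Its groups did not overlap, but its mean was below the expression minimum and it was not tested. Rxrg was listed at 0. These 3 receptor genes were picked for their role after their values had been seen. Of 10 other oxysterol and bile acid enzymes 1 was tested, Cyp27a1, which hydroxylates the sterol side chain in mitochondria; it had 8.84 and 8.24 FPKM with galectin-1, against 9.23 and 9.84 FPKM with vehicle (-0.14, limma adjusted p = 0.274).

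Of 10 genes that act on Ch25h in macrophages, sensors, interferon signalling genes and Atf3, all were tested and 0 passed, with a median of 0.03; 3 were higher and 0 lower at an unadjusted p under 0.05 in limma, beside 12.2% and 11.0% of all tested genes. Tlr4, the LPS receptor, had 23.0 and 23.0 FPKM with galectin-1, against 19.6 and 20.5 FPKM with vehicle (0.19, limma adjusted p = 0.105). Ifnb1, the interferon beta gene, had 15.0 and 16.9 FPKM with galectin-1, against 14.5 and 12.9 FPKM with vehicle (0.21, limma adjusted p = 0.201). Stat2, a transducer of interferon signals, had 177 and 179 FPKM with galectin-1, against 161 and 167 FPKM with vehicle (0.12, limma adjusted p = 0.129). These 3 genes had the smallest p of the list, and in all 3 both galectin-1 libraries were the higher ones. Over the whole list 4 of 10 genes were higher without overlap and 0 lower, beside 29.1% and 26.2% of all tested genes.

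Markers of the cells in the cultures were measured beside these genes. The 8 macrophage markers summed to 10126 and 10110 FPKM with galectin-1, against 9332 and 9329 FPKM with vehicle; all 8 were higher without overlap, as were 29.1% of all tested genes, and 0 of 8 passed. Lyz2, the lysozyme gene, led them with 6269 and 6223 FPKM with galectin-1, against 5761 and 5642 FPKM with vehicle, so the macrophage label fits its markers. The 9 dendritic cell markers summed to 17.3 and 17.8 FPKM with galectin-1, against 22.7 and 22.7 FPKM with vehicle. Of these 3 were tested and 1, Fscn1, fell (-0.47, limma adjusted p = 0.0425). Most of the sum lay in Fscn1 and Ccl22, with means of 9.75 and 8.19 FPKM over all libraries. The 6 that were not tested averaged below 1 FPKM each and differed in direction, so the sum does not measure the share of dendritic cells. The 8 fibroblast markers, from a cell type that can make Ch25h and Cyp7b1, summed to 19.3 and 18.7 FPKM with galectin-1, against 15.5 and 15.6 FPKM with vehicle; 5 were tested, all 5 were positive, beside 50.7% of all tested genes, and 0 passed. B cell markers summed to 3.60 and 2.62 FPKM with galectin-1, against 2.93 and 3.41 FPKM with vehicle, with Cr2 at 0. T and NK cell markers summed to at most 0.0735 FPKM in a library, with Cd3e, Cd3g and Nkg7 at 0, and neutrophil markers to at most 2.92 FPKM, with Elane and Ltf at 0. The nuclear RNA Neat1 fell to 44.9 and 44.2 FPKM with galectin-1, against 97.1 and 106 FPKM with vehicle (-1.17, limma adjusted p = 0.00174). It was listed as a possible sign of RNA handling, but handling was not measured and a response of the cells cannot be told apart from it. Malat1, another nuclear RNA, had 66.9 and 78.7 FPKM with galectin-1, against 94.5 and 96.2 FPKM with vehicle; the groups did not overlap and the difference did not pass (-0.39, limma adjusted p = 0.0694). The part of these markers, of Neat1 and of Malat1 in the difference of Ch25h was not tested.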

How the data were processed

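Messenger RNA of 4 libraries, 2 per group, was sequenced after column extraction and a stranded poly(A) library kit, per the labels' protocols. The authors deposited FPKM values, 1 per gene symbol and library. Per the submitters' processing notes the tools were Cufflinks 2.2.1, SAMtools 0.1.19, Bowtie2 2.2.3 and TopHat2 2.0.13, with the mm10 build, in roles that are not stated; nor are the annotation, the use of strand and the handling of multiply mapped reads.

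The genes and lists were chosen with earlier results of these data known. Values were used as log2(FPKM + 1). The 9380 genes that averaged 1 FPKM or more were fitted with limma 3.58.1 in R 4.3.3 (empirical Bayes, variance trend, 2 residual and 3.89 prior degrees of freedom), and p-values were adjusted over all of them. No p was adjusted over a list alone. Fits that leave out 1 library assume that the lone library of its group varies like the other group. The test was also run on simulated data, with 200 changed genes in each of 20 simulations of 9380 genes. It called 33.7% of the genes with a log2 change of 0.25, 79.5% of those with 0.5 and 99.6% of those with 1. Of the calls 7.50% were false. The simulated noise was independent and normal, with the spreads that limma had moderated. The simulation thus assumed the variance model of the test, and the real libraries may yield fewer true calls.

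All 10 genes are named. Other lists name genes past the threshold and up to 3 of smallest p; marker lists name genes past the threshold and up to 2 of highest mean. Of 120 listed symbols 119 were found directly or under an older symbol (Adgre1 as Emr1). Loci come from GENCODE and promoter windows from RefSeq, both on the assembly of the mm10 build; 8 of the 10 genes had a window, and Cyp7b1 and Abcg1 had none. Relative depth was read from 1366 genes below 0.3 FPKM in every library. A further gene list of the pathway is not reported here.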

Additional observations from a re-analysis of the deposited data

How the results depend on the processing

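Over all tested genes, 57 passed as higher with galectin-1 and 55 as lower in the results as reported. These counts were 1 and 2 with no filter, 127 and 99 when the minimum was 5 FPKM, 24 and 47 after quantile normalization and 1 and 1 without a variance trend. With 1 library left out they were 4 to 9 and 3 to 12. Increases made up 33.8% of the calls after quantile normalization, in place of 50.9%. With replicate number as a block (replicate block) they were 123 and 117. Whether same-numbered libraries were paired is not stated. The correlation of their deviations was 0.0114 over the tested genes, 0.0420 without small RNA symbols and 0.0486 by rank (Spearman). Under the block Ch25h passed with a limma adjusted p of 0.0245, and no other call among the oxysterol and LXR genes was gained or lost. The number of oxysterol and LXR genes that were higher, 1 as reported, was 0 with no filter, after quantile normalization, without a variance trend and with any 1 library left out; the number that were lower was 0 under each of the 11 alternatives. Their median difference, 0.10 as reported, ran from 0.062 to 0.15 with 1 library left out, the highest without vehicle replicate 1. With 1 library left out the difference of Hsd3b7 ran from -0.061 (without vehicle replicate 2) to 0.22, and that of Srebf1 from -0.13 to 0.018 (without vehicle replicate 1), so these 2 changed sign. The differences of Ch25h, Nr1h2, Nr1h3, Abca1, Abcg1, Mylip and Nceh1 kept their sign under the 11 alternatives. A fit without 1 library has fewer samples, and one with another minimum tests other genes; the cause of the remaining changes was not tested. The simulated test called 33.7% of genes with a log2 change of 0.25, so differences as small as those of the LXR targets can be missed with 2 libraries per group, and Cyp7b1 and Gpr183 were too low to test.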
